A study of Homo sapiens with 9 samples.

Results

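The enzymes that build cholesterol and fatty acids, together with the regulators that set their transcription, were followed in MP41 cells, a human uveal melanoma line. The genes were chosen by name and by function: all 31 named genes had a row in the deposited table of 14839 genes. By role they comprised 7 genes of the mevalonate pathway, 11 genes of the steps from squalene to cholesterol, 3 regulators with 1 sterol carrier, and 9 genes of fatty acid synthesis. PolyA RNA was sequenced in 9 libraries, 1 for each condition. The 0 h library came from untransfected cells, and the remaining 8 came from cells transfected at 66 nM with synthetic miR-16 or with the control mimic miR-CTR and collected 6, 12, 24, and 48 h later. All libraries came from the same line, grown in medium with serum. The deposited columns carry a time index (T0, T1, T2, T4, T5) that was read in order as these times, since none of the sources used here states the pairing. With 1 library per condition there was no replicate error and no test: an interval given here covers counting error only.

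Cholesterol is made from acetyl-CoA through mevalonate, isopentenyl units, squalene, and lanosterol. Fatty acids are made from the same acetyl-CoA by carboxylation to malonyl-CoA and repeated elongation, followed by desaturation. Genes of both routes are activated by the sterol regulatory element-binding proteins (SREBPs), membrane-bound transcription factors that are cut free in the Golgi when membrane sterol is low, and INSIG proteins hold them in the endoplasmic reticulum when sterol is plentiful. miR-16 is a small RNA that lowers mRNAs carrying, usually in the 3′UTR, a match to its seed, the bases 2 to 8 from its 5′ end. The mature sequence of RefSeq is shown first because all site searches rest on it, with the seed in capitals, and the 3 matches in the 3′UTR of FASN (fatty acid synthase) follow because FASN had the lowest late logFC of the 31 genes. Each FASN window is printed 5′ to 3′ on the reverse strand of chromosome 17, and the capitals mark the matched letters.
miR-16: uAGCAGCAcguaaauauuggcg
FASN site 1: tgccccccgagGCTGCTAgatgtaggtgt
FASN site 2: atgattcaaatTGCTGCTtggattttgaa
FASN site 3: tttggtaaaaaTGCTGCTctcagcctccc
In GRCh38 the matched bases lie at chr17:82079004-82079010 for site 1, chr17:82078457-82078463 for site 2, and chr17:82078374-82078380 for site 3. Site 1 is a 7mer-A1 (bases 2 to 7 paired, with an A opposite base 1), and sites 2 and 3 are 7mer-m8 sites (bases 2 to 8 paired). All 3 lie in the 810-base 3′UTR of the FASN transcript with the longest annotated 3′UTR. The mature miR-16 is encoded at chr3:160404754-160404775 on the forward strand (MIR16-2) and at chr13:50049027-50049048 on the reverse strand (MIR16-1).

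The libraries held between 20270000 and 27360000 reads over the listed genes. The deposited value of a gene is log2 of its normalized reads plus 1, and every value below is on this scale unless another unit is named. The 31 genes lay between 7.83 (FADS2) and 15.31 (SCD), which stood for 197 to 47599 reads, and all 31 were above the lowest 25% of genes by mean expression. The counting standard error (SE) of their late logFC ran from 0.008 to 0.089. All 8 melanocytic markers looked for were present in every library, with S100B lowest at 8.64 and TYRP1 reaching 17.88. None of the 5 epithelial markers had a row. Of the fibroblast markers 3 of 5 had a row: COL1A1 lay between 8.04 and 8.86, LUM between 6.94 and 8.57, and PDGFRB between 3.52 and 5.60. Of the immune and endothelial markers 1 of 6 had a row, CD68, between 5.46 and 5.86. LUM was lower with miR-16 at 24 and 48 h and PDGFRB was higher, and their part in the results below was not tested. In bulk RNA, fewer cells of a kind and less RNA per cell cannot be told apart.

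Levels were compared between genes per length, as RPKM (reads per kilobase of the longest annotated transcript, scaled to the library total), in the untransfected cells. The synthesis genes were well expressed, with a median of 16.3 on this scale against 8.04 for all 12976 genes matched to the annotation. SQLE, squalene epoxidase, stood at 185 and ranked 273 of those genes, and SCD, the stearoyl-CoA desaturase that makes oleate, stood at 177 and ranked 290. ACLY, which releases acetyl-CoA from citrate, followed at 89.4 and FDPS, the farnesyl diphosphate synthase, at 63.4. FASN stood at 49.6, INSIG1 at 11.2, and both SREBP genes were close together, SREBF1 at 26.2 and SREBF2 at 24.9. The lowest were FADS2, the fatty acid delta-6 desaturase, at 2 and CYP51A1, the lanosterol demethylase, at 3.98. CYP51A1 shares 79.4% of its exonic bases with other annotated protein-coding loci on the same strand, so its low level may reflect the counting and is uncertain. The order rests on 1 library and on the annotated transcript length.

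**Figure D1:**
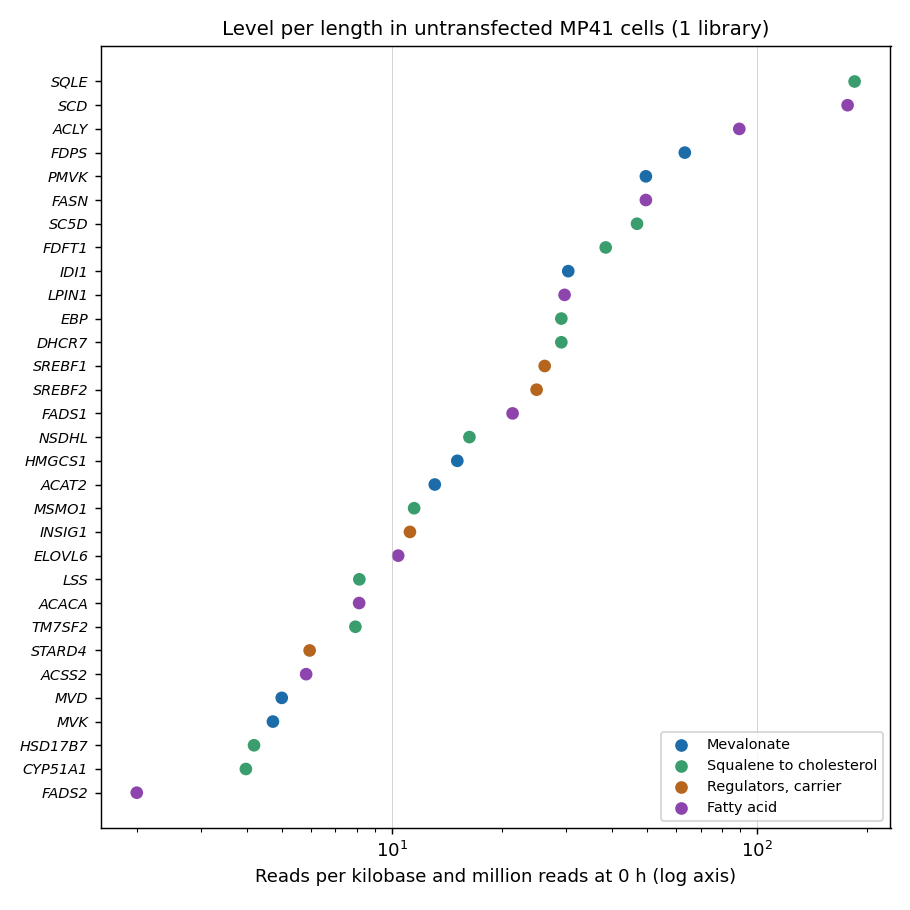
Level of the 31 genes in untransfected MP41 cells, as RPKM on a log axis, with 1 point per gene coloured by role. SQLE (185) and SCD (177) stand apart at the top, and FADS2 (2) is lowest.

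The first comparison asked how these genes moved in culture after transfection with the control mimic. Differences from the 0 h library of more than 0.5 in size (1.41-fold) were called. With miR-CTR the late mean (24 and 48 h) of 8 of the 31 genes was more than 0.5 above 0 h (25.8%), where 11% of all genes were, and none was more than 0.5 below it, where 9.79% of all genes were. The 8 were the regulators INSIG1, SREBF1, and SREBF2, the mevalonate kinase gene MVK, and 4 genes of fatty acid synthesis, ACSS2, ACACA, FASN, and SCD. Restricted to the 11129 genes above the lowest 25% of expression, 8.09% were called upward. None of the 11 genes between squalene and cholesterol was called in either direction: they lay between −0.29 (NSDHL) and 0.45 (DHCR7). The median over all 31 genes was 0.17. Transfection reagent, mimic, and culture time cannot be told apart against 0 h.

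INSIG1 encodes the endoplasmic reticulum protein that retains the SREBP complex, and the gene is itself a classical SREBP target (ENSG00000186480.12, chr7:155297776-155310235, forward strand, GRCh38). Its value was 9.60 at 0 h, then 10.18, 10.11, 10.83, and 11.07 at 6, 12, 24, and 48 h with miR-CTR, against 10.08, 9.96, 10.42, and 10.55 in the miR-16 libraries. All 8 transfected libraries were above 0 h, and the libraries at 24 and 48 h were the highest with each mimic. The late mean was 1.35 above 0 h with miR-CTR (counting SE 0.057, 2.55-fold), the highest of the 31 genes, and 0.89 above with miR-16 (counting SE 0.060, 1.85-fold). SREBF1, which encodes the SREBP form that favours fatty acid genes, stood at 11.45 at 0 h, at 12.28, 11.95, 12.23, and 12.26 with miR-CTR, and at 12.38, 11.77, 12.05, and 12.04 with miR-16. It was thus already high at 6 h with each mimic, lower at 12 h, and higher again later. SREBF2, which encodes the form that favours cholesterol genes, stood at 11.67 at 0 h, at 11.74, 11.75, 12.22, and 12.57 with miR-CTR, and at 11.80, 11.61, 11.95, and 12.29 with miR-16. Unlike SREBF1, it lay within 0.13 of 0 h at 6 and 12 h and was above it at 24 and 48 h with each mimic.

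SCD, the most abundant of the 31 genes by reads, stood at 14.41 at 0 h, at 14.85, 15.04, 15.31, and 15.31 with miR-CTR, and at 14.84, 15.00, 15.10, and 15.02 with miR-16. All 8 transfected libraries were above 0 h by 0.43 or more. ACSS2, the cytosolic enzyme that makes acetyl-CoA from acetate, stood at 8.68 at 0 h, at 8.54, 8.67, 9.02, and 9.56 with miR-CTR, and at 8.28, 8.57, 8.85, and 9.33 with miR-16. It was below 0 h at 6 and 12 h and above it at 24 and 48 h with each mimic, and its span of 1.05 between 6 and 48 h with miR-16 was the highest of the 31 genes. ACACA, the acetyl-CoA carboxylase, stood at 10.86 at 0 h, at 11.19, 11.23, 11.44, and 11.48 with miR-CTR, and at 11.34, 11.16, 11.31, and 11.40 with miR-16. MVK stood at 8.80 at 0 h, at 9.24, 9.19, 9.29, and 9.37 with miR-CTR, and at 9.31, 9.05, 9.21, and 9.0 with miR-16. In both genes all 8 transfected libraries were above 0 h.

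With miR-16 the late mean of 4 genes was more than 0.5 above 0 h (12.9%), beside 14.1% of all genes and 9.64% of those above the lowest 25% of expression. These were INSIG1, SREBF1, SCD, and TM7SF2. None was more than 0.5 below 0 h, beside 11.7% of all genes, and the median was 0.20. Of the 8 genes called with miR-CTR, 7 were above 0 h with miR-16 too, and 3 were past 0.5. Both counts use the same 0 h library, so they are not independent of each other. At 6 h 3 genes were more than 0.5 above 0 h with each mimic, beside 3.53% of all genes with miR-CTR and 4.62% with miR-16. At 12 h these were 2 genes with miR-CTR, beside 4.04%, and 1 with miR-16, beside 3.87%. At 24 h they were 6 genes with miR-CTR, beside 8.33%, and 3 with miR-16, beside 10.6%. At 48 h alone 8 genes were past 0.5 with each mimic (25.8%), beside 15.5% of all genes with miR-CTR and 18.4% with miR-16. Those with miR-16 were INSIG1 (0.95), TM7SF2 (0.78), ACSS2 (0.65), SREBF2 (0.62), SCD (0.61), SREBF1 (0.59), ACACA (0.54), and FADS1 (0.53). In the early window (mean of 6 and 12 h), 4 genes were above 0 h by more than 0.5 with miR-CTR (SREBF1, INSIG1, SCD, and FASN), beside 3.08% of all genes, and 2 with miR-16 (SREBF1 and SCD), beside 2.94%. These were 12.9% and 6.5% of the 31, beside 0.692% and 0.521% of genes above the lowest 25% of expression. With miR-CTR and miR-16 the shares of such genes were 0.863% and 1.33% at 6 h, and 1.18% and 0.8% at 12 h. They were 5.01% and 5.79% at 24 h, and 12.1% and 14% at 48 h.

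**Figure D2:**
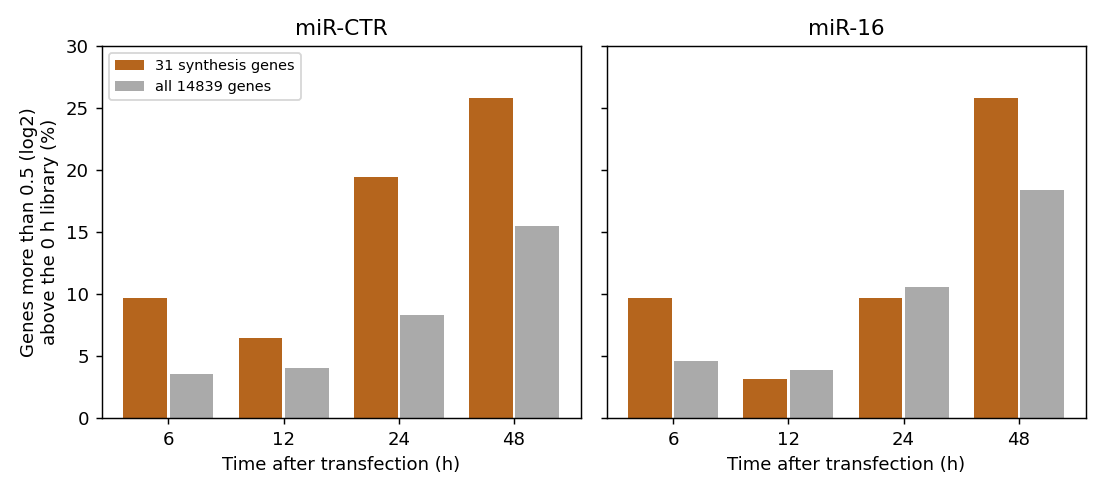
Share of genes more than 0.5 (log2) above the 0 h library at each time, for the 31 synthesis genes and for all 14839 genes, with miR-CTR on the left and miR-16 on the right (1 library per time). At 48 h the synthesis genes reach 25.8% with each mimic, whereas all genes reach 15.5% with miR-CTR and 18.4% with miR-16.

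**Figure D3:**
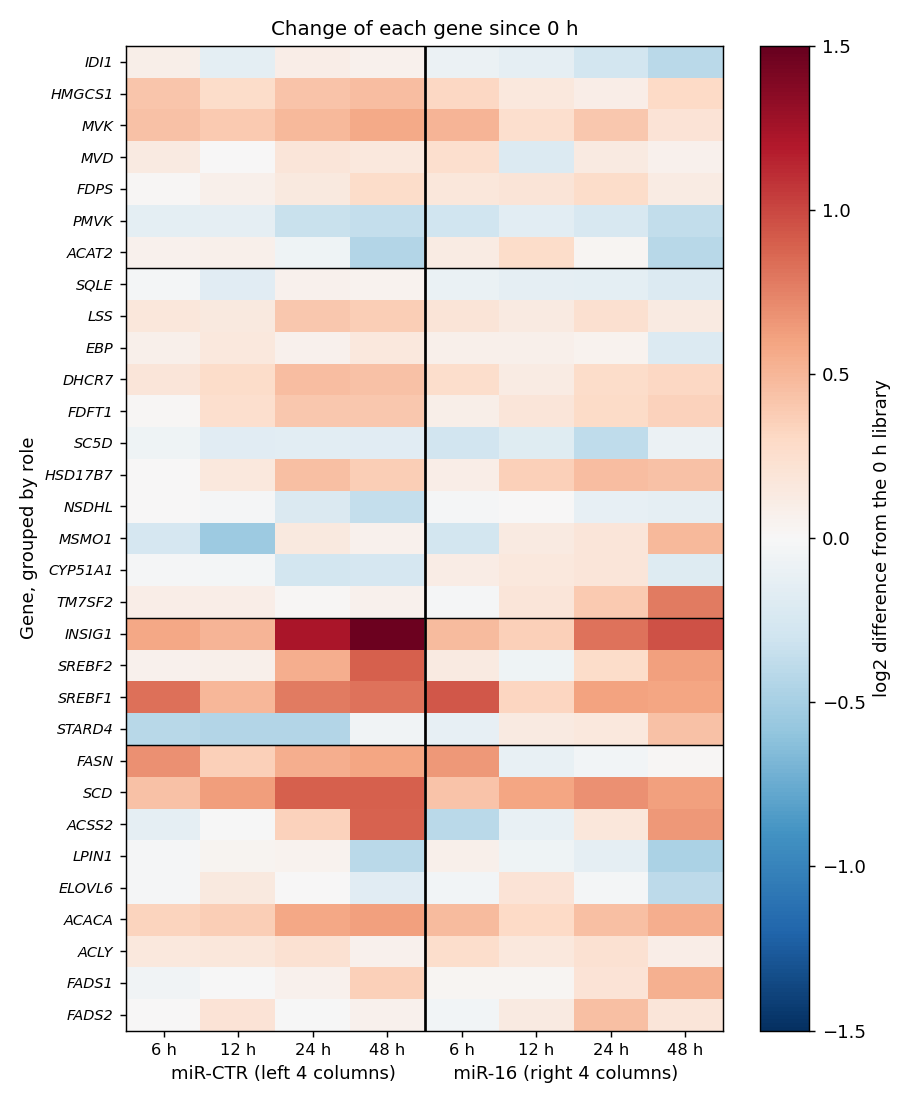
Log2 difference of each of the 31 genes from the 0 h library at 6, 12, 24, and 48 h, with miR-CTR in the left 4 columns and miR-16 in the right 4, and genes grouped by role. The darkest cells are those of INSIG1 with miR-CTR, which reached 1.47 at 48 h. FASN is red at every time with miR-CTR and at 6 h only with miR-16.

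The second comparison asked how miR-16 differed from miR-CTR at the same time. The logFC is the value with miR-16 minus that with miR-CTR. Averaged over 6 and 12 h it is called the early logFC, and averaged over 24 and 48 h the late one. The synthesis genes differed little. The late logFC was below −0.5 for 1 of the 31 genes, FASN, where 5.73% of all genes were, and above 0.5 for 2, TM7SF2 and STARD4, where 7.76% of all genes were. Among genes above the lowest 25% of expression these shares were 4.81% and 3.96%. One gene of 31 is 3.2% and 2 are 6.5%, so neither direction stands clear of the background. The genes next to the threshold were INSIG1 at −0.47 and IDI1 at −0.42, and no gene lay between 0.4 and 0.5. In the early window no gene passed 0.5 in either direction, beside 1.45% of all genes downward and 2.04% upward. By single times, no gene passed at 6 h, beside 3.34% of all genes downward and 3.38% upward, and at 12 h none passed downward (2.53% of all genes) and 2 upward (3.31%). At 24 h FASN passed downward (5.26%) and STARD4 upward (7.24%). FASN and INSIG1 passed downward at 48 h (8.96%) and TM7SF2 upward (10.4%). Early shares were smaller among genes above the lowest 25% of expression, where all 31 lie. For the early window 0.368% of such genes passed downward and 0.53% upward. Their 6 h shares were 0.557% downward and 0.611% upward. Their 12 h shares were 0.854% downward and 0.917% upward. The 2 genes upward at 12 h (6.5% of the 31) exceeded that last share, though this rests on 2 genes.

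Below the threshold, more genes were lower than higher with miR-16. The late logFC was below 0 for 20 of the 31 genes and above 0 for 11, beside 49.1% of all genes below 0, and the median was −0.10 beside 0.01 for all genes. The 95% counting interval of the late logFC excluded 0 for 25 genes, of which 18 were lower, beside 29.5% of all genes, and 7 higher, beside 28.8%. Among genes above the lowest 25% of expression these shares were 36% and 31%. Whether this interval excludes 0 depends on the reads of a gene, and neither set of comparison genes was matched to the 31 for reads. Both the 24 and the 48 h library pair were lower with miR-16 for 18 genes, beside 36.4% of all genes, and both were higher for 9, beside 36.8%. HMGCS1, INSIG1, ACSS2, FASN, and SCD (5 of 31) were lower with miR-16 at 4 of 4 times, beside 16.7% of all genes (19.2% of those above the lowest 25% of expression). ACAT2, CYP51A1, HSD17B7, STARD4, and FADS1 (5 of 31) were higher at 4 of 4 times, beside 17.7% of all genes (18.5%). Both counts are near the share of all genes. FASN and STARD4 excepted, none of these 10 genes was past 0.5 in the late mean.

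**Figure D4:**
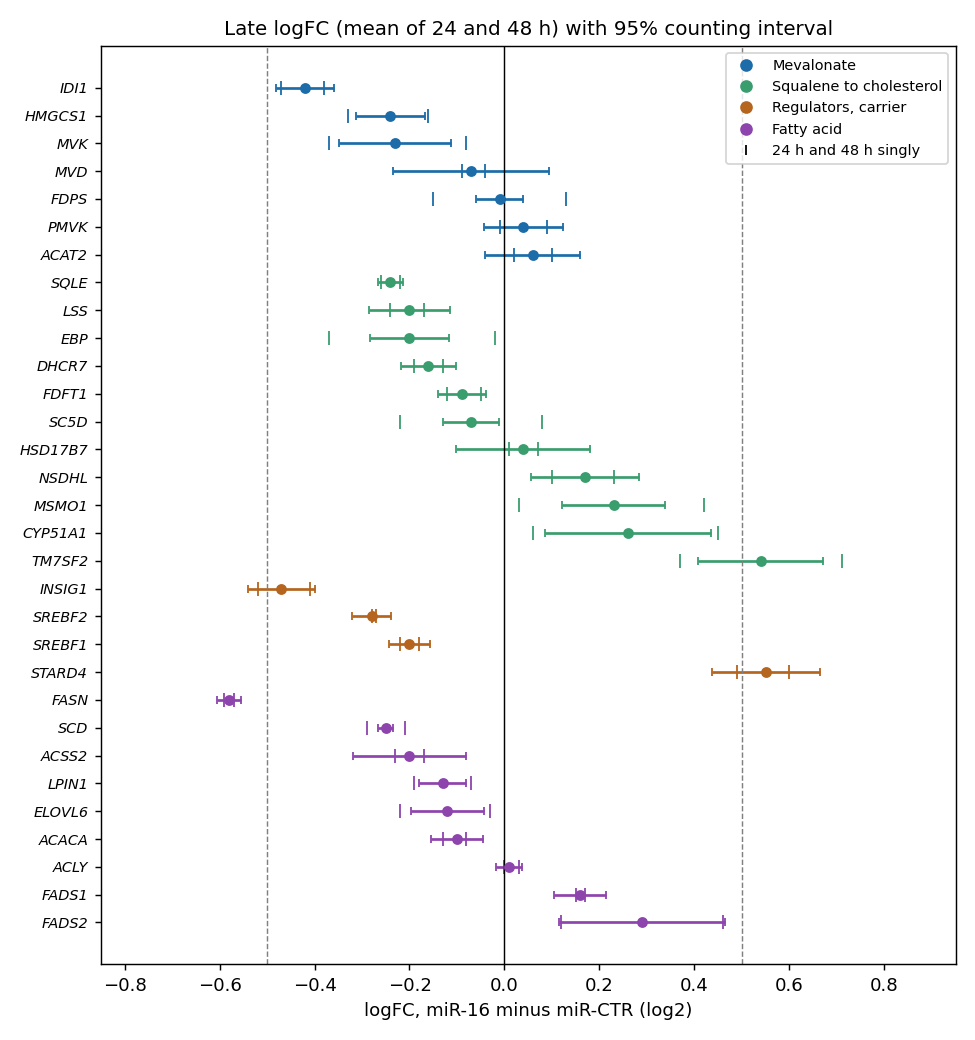
Late logFC (miR-16 minus miR-CTR, log2, mean of 24 and 48 h) of the 31 genes by role, with the 95% counting interval as a bar, the 24 and 48 h values as ticks, and dashed lines at 0.5 in size. FASN lies beyond the left line and TM7SF2 and STARD4 beyond the right one, and 20 of the 31 points lie below 0.

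Among the genes of the mevalonate pathway, none of 7 passed 0.5 in the late logFC, with 5 below 0, 2 above 0, and a median of −0.07. IDI1, the isomerase that interconverts the isopentenyl units, was the lowest of them. It stood at 11.20 at 0 h, at 11.29, 11.05, 11.30, and 11.26 with miR-CTR, and at 11.11, 11.07, 10.92, and 10.79 with miR-16. Its miR-16 values at 24 and 48 h were the lowest of all 9 libraries, and its late logFC was −0.42 (counting SE 0.031, a difference of −25.5%). HMGCS1, the HMG-CoA synthase at the entry of the pathway, stood at 10.25 at 0 h, at 10.67, 10.52, 10.68, and 10.71 with miR-CTR, and at 10.56, 10.41, 10.35, and 10.55 with miR-16, a late logFC of −0.24 (counting SE 0.037). All of its transfected libraries were above 0 h, less so with miR-16. MVK was lower with miR-16 by a late logFC of −0.23 (counting SE 0.060), most of it at 48 h (−0.37). PMVK and MVD, the kinase and the decarboxylase that follow, had late logFCs of 0.04 and −0.07, FDPS of −0.01, and ACAT2, the cytosolic thiolase that joins acetyl-CoA units, of 0.06. ACAT2 shares 35.8% of its exonic bases with SOD2 and TCP1 on the opposite strand, FDPS has 8 named pseudogenes, and the strand setting of the counting is not given in the sources used here.

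From squalene to cholesterol, 1 of 11 genes was above 0.5 and none below −0.5, with 6 below 0, 5 above 0, and a median of −0.07. TM7SF2, one of the sterol C14 reductases (ENSG00000149809.14, chr11:65111845-65116384, forward strand), stood at 8.58 at 0 h, at 8.68, 8.68, 8.60, and 8.65 with miR-CTR, and at 8.56, 8.76, 8.97, and 9.36 with miR-16. With miR-CTR it stayed within 0.10 of 0 h, and with miR-16 the 24 and 48 h libraries were above all others, which gave a late logFC of 0.54 (counting SE 0.067, 45.4% higher). At 24 h alone its logFC was 0.37 and at 48 h 0.71. SQLE stood at 13.62 at 0 h, at 13.59, 13.45, 13.69, and 13.67 with miR-CTR, and at 13.52, 13.48, 13.47, and 13.41 with miR-16. Its 9 libraries spanned only 0.28, so that its late logFC of −0.24 (counting SE 0.013) was most of the gene's whole range. MSMO1, the C4 methyl sterol oxidase, stood at 9.23 at 0 h, at 8.98, 8.69, 9.38, and 9.30 with miR-CTR, and at 8.95, 9.37, 9.41, and 9.72 with miR-16. Its logFC of 0.68 at 12 h stood between −0.03 at 6 h and 0.03 at 24 h. The 12 h change since 0 h was −0.54 with miR-CTR and 0.14 with miR-16.

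The other genes of this stretch were spread on both sides of 0. FDFT1 (squalene synthase) had a late logFC of −0.09, LSS (lanosterol synthase) of −0.20, EBP (the sterol isomerase) of −0.20, DHCR7 (the last reductase of the pathway) of −0.16, and SC5D (the C5 desaturase) of −0.07. CYP51A1 stood at 0.26, NSDHL at 0.17, and HSD17B7 at 0.04, the last being the keto reductase of C4 demethylation and NSDHL the dehydrogenase before it. For EBP most of the difference came from 48 h (−0.37 against −0.02 at 24 h). CYP51A1 shares 79.4% of its exonic bases with other annotated protein-coding loci on the same strand, and its counts are uncertain.

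Of the regulators, INSIG1 had a late logFC of −0.47 (counting SE 0.036, a difference of −27.6%), with −0.10, −0.15, −0.41, and −0.52 at 6, 12, 24, and 48 h. SREBF2 had −0.28 (counting SE 0.021) and SREBF1 −0.20 (counting SE 0.022). Each of these 3 genes was above 0 h with miR-16 in the late window, and less far above it than with miR-CTR. STARD4 (ENSG00000164211.12, chr5:111496033-111512590, reverse strand), a soluble carrier that moves cholesterol between membranes, went the other way. It stood at 9.30 at 0 h, at 8.88, 8.86, 8.86, and 9.25 with miR-CTR, and at 9.18, 9.43, 9.46, and 9.74 with miR-16. At 6, 12, and 24 h the miR-CTR libraries were below 0 h by 0.42 to 0.44, and the miR-16 libraries were above 0 h from 12 h on. Its logFC was 0.30, 0.57, 0.60, and 0.49 at the 4 times, and 0.55 in the late mean (counting SE 0.058, 45.9% higher). MSMO1 and STARD4 were the 2 genes of the 31 that passed 0.5 at 12 h.

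FASN (ENSG00000169710.8, chr17:82078333-82098332, reverse strand) makes palmitate from malonyl-CoA. Its value was 13.25 at 0 h, then 13.94, 13.61, 13.80, and 13.84 at 6, 12, 24, and 48 h with miR-CTR, against 13.90, 13.14, 13.21, and 13.27 in the miR-16 libraries. At 6 h both mimics were alike and well above 0 h. From 12 h on the miR-16 libraries lay within 0.11 of 0 h, whereas the miR-CTR libraries stayed at least 0.36 above it. The logFC was −0.04, −0.47, −0.59, and −0.57 at the 4 times, with a late mean of −0.58 (counting SE 0.013, a difference of −33.1%). The size of the late logFC is thus close to the late change with miR-CTR since 0 h (0.57), and with miR-16 that change was −0.01.

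The other 8 fatty acid genes stayed within 0.5 of miR-CTR. SCD had a late logFC of −0.25 (counting SE 0.008), ACSS2 of −0.20, LPIN1 (a phosphatidate phosphatase of glycerolipid synthesis) of −0.13, ELOVL6 (the elongase of saturated C16 chains) of −0.12, ACACA of −0.10, and ACLY of 0.01. Both delta desaturases of polyunsaturated chains were above 0, FADS1 at 0.16 and FADS2 at 0.29, the latter with 0.46 at 24 h and 0.12 at 48 h. FADS2 had the fewest reads of the 31 genes. The median of the 9 was −0.12.

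**Figure D5:**
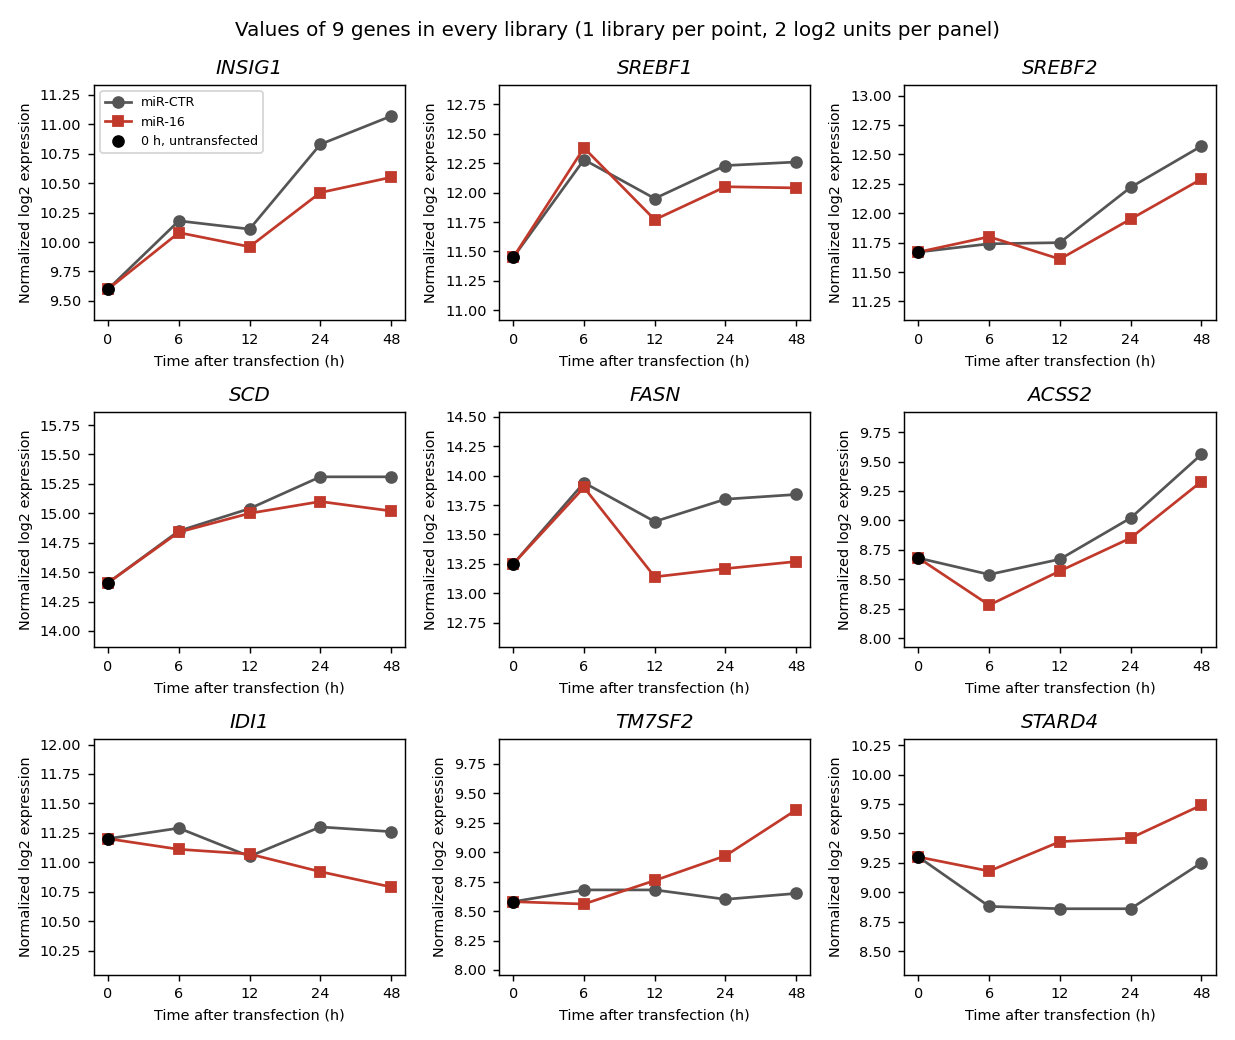
Normalized log2 expression of 9 genes in every library against time after transfection (h), with miR-CTR in grey, miR-16 in red, and the shared 0 h library in black. Each point is 1 library and each panel spans 2 log2 units. The FASN curves part between 6 and 12 h, those of INSIG1 between 12 and 24 h, and STARD4 is higher with miR-16 at all 4 times.

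Within each mimic, the change from 6 to 48 h leaves out the 0 h library. With miR-CTR 3 of the 31 genes were higher at 48 h by more than 0.5, beside 14.9% of all genes, and none was lower, beside 13.3%. These were ACSS2 (1.02), INSIG1 (0.89), and SREBF2 (0.83). With miR-16 4 genes were higher, beside 18.7% of all genes, and 3 were lower, beside 16.8%. The 4 were ACSS2 (1.05), TM7SF2 (0.80), MSMO1 (0.77), and STARD4 (0.56), and the 3 were FASN (−0.63), LPIN1 (−0.56), and ACAT2 (−0.54). INSIG1 and SREBF2 changed by 0.47 and 0.49 with miR-16.

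Seed matches were looked for in the longest annotated 3′UTR of each gene, as TGCTGCT (7mer-m8), TGCTGCTA (8mer), or GCTGCTA (7mer-A1) on the transcript strand, where an 8mer contains both shorter forms and was counted once. They were no more common in these genes than elsewhere. A match was present in 7 of the 31 genes (22.6%), beside 33.2% of 11575 protein-coding genes. All 7 (FASN, ELOVL6, MVK, SREBF1, SREBF2, ACACA, and ACSS2) were among the 20 genes with a late logFC below 0 (35%), beside 39.4% of all protein-coding genes below 0. None of the 11 genes above 0 had one, beside 26.8% of such genes. The 11 had shorter 3′UTRs, with a median of 1214 bases beside 1569 for all protein-coding genes above 0. The median was 1850 bases for the 20 genes below 0, beside 1794 for all protein-coding genes below 0. The part of length in these shares was not tested. INSIG1, IDI1, SQLE, and HMGCS1, which were also lower with miR-16, had no match in the 3′UTR searched. The single 8mer was in ELOVL6, at chr4:110046053-110046060, and the matches of both SREBP genes are shown with it because these genes encode the activators of the pathway.
ELOVL6: aggaggttgctTGCTGCTAtcttgaaaacc
SREBF1: cgcggaggcctTGCTGCTggcctcctgct
SREBF2: ccagcgggcagTGCTGCTggccgaagctg
The SREBF1 match lies at chr17:17812791-17812797 on the reverse strand and the SREBF2 match at chr22:41905545-41905551 on the forward strand. The matches start at base 1962 of a 2686-base 3′UTR (SREBF1) and base 1776 of a 3537-base 3′UTR (SREBF2). Each 3′UTR is the longest annotated one, and whether these bases are coding in other transcripts was not tested. A site in the 3′UTR of the main SREBP mRNAs is therefore not shown. This was not tested for the other matched genes either, and the 7 of 31 rests on this choice of transcript. The late logFC of ELOVL6, with an 8mer and a 7mer-m8, was −0.12, and that of FASN, with 3 shorter sites, was −0.58. A match describes the letters of the reference and is not a measured binding site.

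Promoter windows of RefSeq (GRCh38.p14, from 250 bases before to 50 after a start) were available for 27 of the 31 genes, and not for ACAT2, FDFT1, SQLE, and FASN. The sterol regulatory element in the form TCACNCCAC, read on both strands, was found in 1 of the 27, SREBF2, beside 1.51% of 15843 protein-coding genes. CCAAT, the box bound by NF-Y, was found on either strand in 21 of the 27 (77.8%), beside 42.1% of all protein-coding genes. Of all their windows, 41% held 2 or more CCAAT matches, beside 11.4% of all windows. The SREBF2 element and 1 CCAAT box each of INSIG1, SCD, and TM7SF2 are shown, with the match in capitals, because the values of these genes are described in full above (ATTGG is CCAAT on the other strand).
SREBF2: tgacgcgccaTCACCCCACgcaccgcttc
INSIG1: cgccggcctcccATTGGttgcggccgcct
SCD: gattgcgccgagCCAATggcaacggcagg
TM7SF2: ccccgagcgccgATTGGctggtgtgctgg
The windows lie on the forward strand at chr22:41832962-41832990 for SREBF2, chr7:155297696-155297724 for INSIG1, chr10:100346992-100347020 for SCD, and chr11:65111786-65111814 for TM7SF2. The centre of the SREBF2 element lies 129 bases before the start.

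The genes around the pathway were read from lists set by function, and their late calls stand beside 5.73% of all genes below −0.5 and 7.76% above 0.5. The list of genes that process or retain the SREBPs also held others, such as NFYA, NFYC, and MED15. None of its 15 genes passed 0.5 in the late logFC. SCAP, the escort of the SREBPs, stood at 0.04, the proteases MBTPS1 and MBTPS2 at 0.31 and 0.15, and INSIG2 at −0.26. Of 12 other genes of sterol and isoprenoid synthesis, 1 was below −0.5, PGGT1B (−0.51), a subunit of the geranylgeranyl transferase, and none was above 0.5. The list of other genes of fatty acid synthesis and activation held 28 symbols, of which 8 had no row under the symbol searched, the HACD dehydratases among them, some of which the table names by older symbols that were not paired. Of the 20 measured genes, ELOVL5, an elongase of polyunsaturated chains, was below (−0.51), and AACS, which activates acetoacetate for lipid synthesis (0.68), and ACSL5, an acyl-CoA synthetase (0.61), were above. These counts of 0 to 2 genes are too small to set apart from the shares of all genes.

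Uptake, storage, and efflux of cholesterol formed another list. Of its 16 measured genes, 1 was below −0.5 (6.2%, beside 5.73% of all genes) and 2 were above 0.5 (12.5%, beside 7.76%) in the late logFC. NCEH1, a cholesteryl ester hydrolase, stood at 9.42 at 0 h, at 10.19, 10.35, 10.78, and 11.34 with miR-CTR, and at 10.04, 10.09, 10.39, and 10.60 with miR-16, a late logFC of −0.56. LIPA, the lysosomal acid lipase that frees cholesterol from lipoproteins, had a late logFC of 0.73, and ABCG1, a cholesterol exporter, of 0.93. Against 0 h, 6 of the 16 were more than 0.5 above with miR-CTR, beside 11% of all genes, and 7 with miR-16, beside 14.1%. None was below by as much, beside 9.79% and 11.7%, and both counts share the 0 h library. ABCG1 was 1.33 above 0 h with miR-CTR and 2.26 above with miR-16, though with as few as 28 reads in a library. ABCA1, a second exporter, was 0.60 and 1.01 above. MYLIP, the ligase that degrades lipoprotein receptors and, like both exporters, is a target of the liver X receptors, was 0.93 and 0.91 above. The genes of those receptors, NR1H2 and NR1H3, had late logFCs of 0.07 and 0.23.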

How the data were processed

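The authors deposited normalized log2 values, with 2 decimals, for 14839 genes in 9 libraries. The submitters' processing notes name FastQC, STAR 2.4.0a, featureCounts of Subread 1.5.0-p3, and the build hg38/GRCh38. The annotation, the size factors, the strand setting, and the filter on weak genes are not given in the sources used here. After undoing the log2 and the added 1, 100% of the small values (5 or less) of a library were whole multiples of its own step (within 0.1 read), and this step gave the reads and the counting SEs. No further normalization was applied, and no column was left unmapped (0). Genes were called at a difference past 0.5, without p-values, since each condition had 1 library.

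Coordinates, 3′UTRs, and overlaps came from GENCODE version 29 (GRCh38), joined by symbol (12976 genes, 87.4%), and miRNA and promoter sequences from RefSeq (GRCh38.p14). Named are all members, other list genes past 0.5 in the late logFC, and a set list of regulators. Some genes of this rule are not reported here. The members and lists were chosen with earlier results of these data known. In simulated data with counting noise only, all 200 changed genes were called, with 160 of 14639 unchanged ones, 0 of them above the lowest 25% of expression. The changes were set in well-expressed genes at both late times, with a median recovered size of 0.99. Their recovery was therefore close to certain, and it says nothing about calls near 0.5 or about variation between libraries. Figures were drawn with matplotlib 3.10.9, and values computed with numpy 2.4.6 and pandas 2.3.3 under Python 3.11.15. Alternatives were a 1.5-fold threshold, single times, both times of a window, the 0 h library as reference, quantile normalization, median centring, scaling to the library total, a pseudocount of 10, and a filter on the lowest 25% of expression.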

Additional observations from a re-analysis of the deposited data

Results flagged for a closer look

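For 3 genes the late libraries of the mimics lay on opposite sides of the 0 h library at both 24 and 48 h. IDI1 was above 0 h with miR-CTR and below it with miR-16, a difference of −0.42 in the late mean. SQLE did the same, with a difference of −0.24. STARD4 was below 0 h with miR-CTR and above it with miR-16, a difference of 0.55. These differences were not tested, since each condition had 1 library. The 3 genes are 9.68% of the 31, and 1377 of all 14839 genes (9.28%) had the same pattern. No condition had enough libraries to look for a library that stood apart.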

How the results depend on the processing

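No paired analysis was possible because the values come from no test: each condition had 1 library. The mimics can be matched by time, which is how each logFC was formed, but a fit over the 4 times would take different times as replicates and was not run. Of 103 alternative values of the main counts and medians, 91 stayed within 1.5 times the count or 0.05 of the median. This share is not a measure of robustness. The filter on the lowest 25% of expression could not change these values, since all 31 genes pass it, and several of the counts were 0 under every setting. The late logFC count below −0.5 (1) became 0 at a 1.5-fold threshold, 2 at 48 h alone (FASN and INSIG1), and 0 with the 0 h library as the reference in place of miR-CTR. The count above 0.5 (2) became 0 at 1.5-fold, 1 at 24 h alone, 1 at 48 h alone, 0 where both times had to pass, and 4 against 0 h. The early count above 0.5 (0) became 2 at 12 h alone. The count of genes above 0 h with miR-16 (4) became 8 at 48 h alone. The median late logFC (−0.10) became 0.20 against 0 h, and the median late change with miR-16 since 0 h (0.20) became 0.27 after quantile normalization. No late logFC took the opposite sign under median centring, scaling to the library total, or a pseudocount of 10. FDPS, at −0.01, became 0.00 under median centring and under scaling to the library total, so its sign is not settled there. Under quantile normalization 30 of 31 genes kept their sign, and FDPS went from −0.01 to 0.04. FASN stood at −0.53 under quantile normalization and at −0.01 against 0 h. The causes were not tested. Genes with fewer reads are less precise: the counting SE of the late logFC reached 0.089 for CYP51A1 and FADS2. The time index of the columns, the single library per condition, and the single line limit every value.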

Other observations

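Genes that spend fatty acids were also followed. Of 15 glycerolipid genes, 2 had a late logFC below −0.5 (13.3%, beside 5.73% of all genes) and none above 0.5 (beside 7.76%). CHPT1, the cholinephosphotransferase of phosphatidylcholine synthesis, stood at 11.32 at 0 h, at 11.17, 11.23, 11.40, and 11.51 with miR-CTR at 6, 12, 24, and 48 h, and at 10.77, 10.95, 10.33, and 10.40 with miR-16. Every miR-16 library was below every other library, and the late logFC was −1.09 (a difference of −53.0%). AGPAT3, an acyltransferase of phosphatidic acid synthesis, had a late logFC of −0.64. Of 17 genes of fatty acid oxidation and its control, 1 was below −0.5 (5.9%, beside the same 5.73%) and none above 0.5. PPARGC1A, a coactivator of mitochondrial genes, stood at 8.99 at 0 h, at 9.49, 9.92, 10.49, and 11.06 with miR-CTR, and at 9.33, 9.66, 9.92, and 10.24 with miR-16, so that it was above 0 h in all 8 transfected libraries and lower with miR-16 at 4 of 4 times. In the late window 8 of these 17 genes were more than 0.5 above 0 h with miR-CTR and 5 with miR-16, where 11% and 14.1% of all genes were, and both counts share the 0 h library.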
